A study of Mus musculus with 4 samples.

Results

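Cxcl12, Col1a1, Col1a2, Sparc, Igfbp5, Cxcl14 and Stab2 are 7 genes known from the stroma and the endothelium of bone marrow, and their transcripts were counted here in libraries of sorted blood stem and progenitor cells. The 7 genes, of 32285 in the matrices, were chosen by their UMI counts and detected shares in these libraries, above all their high counts in the Mll4 library, so their levels and the direction of their differences are descriptions. The rule for this choice also named their co-detection per library, so the co-detection ratios below are descriptions too. The study profiled RNA and surface proteins of single mouse marrow cells sorted as CD45.2+ donor-derived, lineage negative, Sca1+ and Kit+ (called LSK), taken 10 weeks after transplantation into recipients. There was 1 library for each of 4 genotypes, namely the control, deletion of Mll3, deletion of Mll4 and deletion of both (Mll3/4). Mll3 and Mll4 are histone methyltransferases encoded by Kmt2c and Kmt2d. The labels do not state the Cre or other driver of the deletions, the host animals or the number of mice behind each library. With 1 library a genotype no difference has a replicate check, so no test was run. Every interval below is a 95% interval for counting error alone. Intervals of UMI sums treat each UMI as an independent draw, so they are too narrow where a few barcodes hold most UMIs.

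Reticular stroma cells and osteoblasts come from the mesenchymal lineage, which lies outside the blood lineage, and line marrow vessels and bone. Sinusoidal endothelial cells form the thin-walled marrow vessels. None of these carries the blood-cell surface protein CD45 (gene Ptprc), so a CD45.2+ sort should leave them out. Their secreted products hold stem cells in place: CXCL12 binds the receptor CXCR4 on blood cells, and KIT ligand feeds the stem cells. In a droplet assay a transcript found in a barcode can come from the cell captured there, from a cell stuck to it, or from free RNA in the suspension.

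Each library held 5136 to 7702 deposited barcodes. A barcode was put in the class with at least 1000 detected genes or in the class under 1000. The upper class held 7454, 6336, 5068 and 4856 barcodes (control first, then the libraries labelled Mll3, Mll4 and Mll3/4, an order kept below), with 120105100, 106988573, 122133435 and 51160509 unique molecular identifiers (UMIs). The lower class held 228, 224, 2634 and 280 barcodes, so that 34.2% of the Mll4-labelled barcodes lay under 1000 genes. The lower-class barcodes of the Mll4-labelled library had a median of 650 UMIs and 2.82% mitochondrial UMIs, against 1360.5 UMIs and 23.5% in the control. Of the deleted genes, Kmt2c was at 69.1, 35.6, 62.0 and 42.9 CPM (UMIs scaled to 1000000 in the barcodes summed) and Kmt2d at 24.8, 21.7, 23.2 and 25.9 in the same order. Kmt2d does not separate the libraries labelled for Mll4, and since 3-prime tags can count a message that lacks an exon, the libraries are named by their labels. Ptprc was seen in 84.9% of the control and 91.8% of the Mll4-labelled upper-class barcodes, and Kit in 90.7% and 82.0%. Pairs of libraries shared 9 to 22 barcode sequences, none with 3 or more of the 7 genes in both libraries.

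Cxcl12 (ENSMUSG00000061353, chromosome 6, 117168535 to 117181367, plus strand, GRCm38) encodes the chemokine that retains stem cells in the marrow and is a defining product of reticular stroma. In upper-class barcodes the control had 630 UMIs of it, the Mll3-labelled library 6, the Mll4-labelled library 2734 and the Mll3/4-labelled library 115. These are 5.25, 0.0561, 22.4 and 2.25 CPM, with no overlap between any of the 4 counting intervals. The 10 richest barcodes held 98.6% of the control and 82.2% of the Mll4-labelled UMIs. The intervals leave out the chance of capturing such barcodes, so their separation does not measure the error of the library levels. The Mll4-labelled level lay above the control by 2.09 on the log2 scale (interval 1.97 to 2.22), and the Mll3-labelled level below it (log2 ratio -6.43).

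Cxcl14 (ENSMUSG00000021508, chromosome 13, 56288643 to 56296551, minus strand) encodes a second chemokine, made by stroma and epithelia. It had 52, 0, 362 and 12 UMIs, or 0.433, 0, 2.96 and 0.235 CPM. A count of 0 in the Mll3-labelled library allows a level of up to 0.0280 CPM. The Mll4-labelled library was again the highest, with a log2 ratio to the control of 2.76 (2.35 to 3.22).

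Col1a1 (ENSMUSG00000001506, chromosome 11, 94936224 to 94953042, plus strand) and Col1a2 (ENSMUSG00000029661, chromosome 6, 4504814 to 4541544, plus strand) encode the chains of type I collagen, the main protein of bone matrix. Col1a1 had 20, 13, 657 and 10 UMIs (0.167, 0.122, 5.38 and 0.195 CPM). Its level in the other 3 libraries overlapped, and the Mll4-labelled library stood apart by a log2 ratio of 4.98 (4.37 to 5.73). Col1a2 had 159, 30, 1073 and 11 UMIs (1.32, 0.280, 8.79 and 0.215 CPM). Here the control exceeded the libraries labelled Mll3 and Mll3/4, and the Mll4-labelled library exceeded the control by a log2 ratio of 2.73 (2.49 to 2.98). Col1a2 overlaps Gm43921 on the same strand, so that its counts may hold or miss reads of that model.

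Sparc (ENSMUSG00000018593, chromosome 11, 55394500 to 55423183, minus strand) encodes osteonectin, a matrix protein of bone cells, fibroblasts and endothelium. It had 124, 56, 968 and 18 UMIs (1.03, 0.523, 7.93 and 0.352 CPM), and the Mll4-labelled to control log2 ratio was 2.94 (2.67 to 3.22). Igfbp5 (ENSMUSG00000026185, chromosome 1, 72857932 to 72874884, minus strand) encodes a secreted protein that binds insulin-like growth factors in bone matrix. It had 291, 9, 634 and 48 UMIs (2.42, 0.0841, 5.19 and 0.938 CPM). Its ratio was the smallest of the 7, at 1.10 (0.90 to 1.30).

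Stab2 (ENSMUSG00000035459, chromosome 10, 86841198 to 87008025, minus strand) encodes stabilin-2, a scavenger receptor for hyaluronan and a marker of sinusoidal endothelium. It had 75, 55, 1952 and 3 UMIs, or 0.624, 0.514, 15.98 and 0.0586 CPM. The control and the Mll3-labelled library overlapped, while the Mll4-labelled library stood above the control by 4.67 (4.34 to 5.03) on the log2 scale. Gene models on the other strand overlap Stab2, and whether counting used the strand is not given in the sources used here.

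All 7 genes were at least 2-fold higher in the Mll4-labelled library than in the control, with a median log2 ratio of 2.76. Of 14973 genes measured in this comparison, 13.6% were at least 2-fold higher, and the median over them was -0.07. The choice of the 7 genes used this contrast, so nothing is read from that count. In the Mll3-labelled library 4 of the 7 (Cxcl12, Col1a2, Igfbp5 and Cxcl14) were at least 2-fold lower than in the control, against 2.33% of all genes measured. In the Mll3/4-labelled library 5 of the 7 were at least 2-fold lower, against 19% of all genes. Col1a1 (log2 ratio 0.27) and Cxcl14 (-0.84) were the others. These 3 comparisons share the control library. A sum over a library cannot tell fewer cells from less RNA per cell, which is why the barcodes behind each sum are described next.

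**Figure D1:**
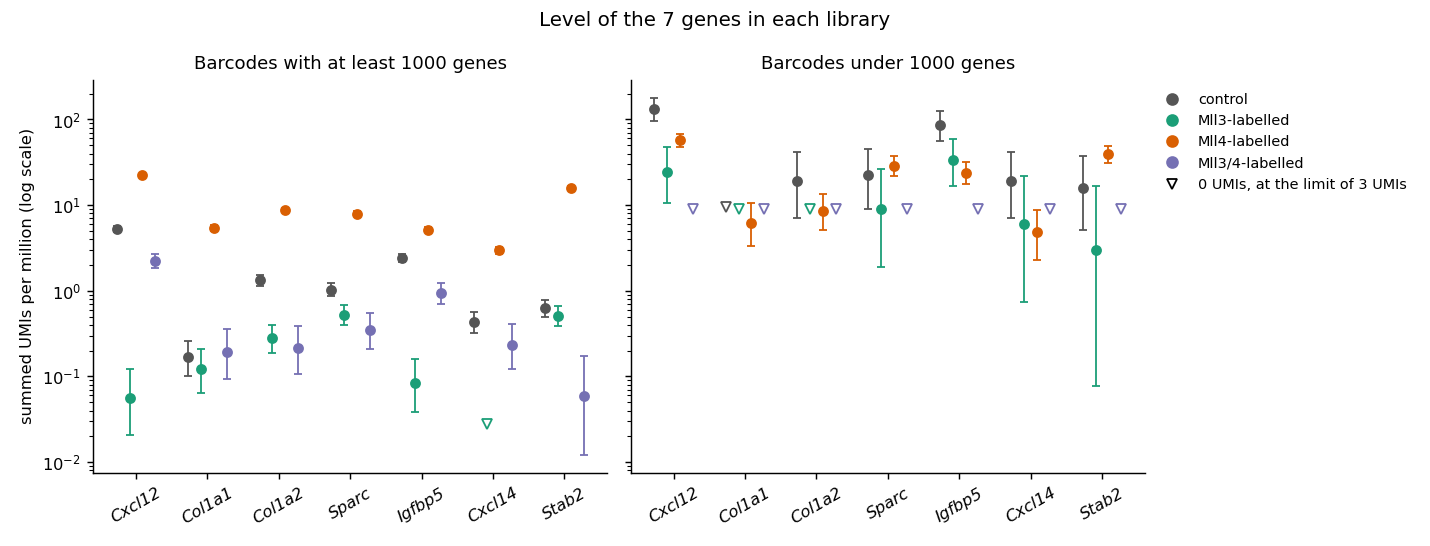
Level of each of the 7 genes in each library, as summed CPM on a log scale, for barcodes with at least 1000 genes (left) and under 1000 genes (right). Points are single libraries, bars are 95% Poisson intervals and triangles mark sums of 0 at the limit of 3 UMIs. On the left the Mll4-labelled library is the highest for all 7 genes, and on the right it is the highest for Sparc, Stab2 and Col1a1, with intervals that overlap those of the control for all 3.

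Most UMIs of the first 6 genes lay in a handful of barcodes. Of the 5068 Mll4-labelled upper-class barcodes 187 had a Cxcl12 UMI, 130 of them with exactly 1, while the 10 richest held 82.2% of all Cxcl12 UMIs. The 10 richest barcodes held 94.4% of Col1a1, 82.1% of Col1a2, 72.9% of Sparc, 75.1% of Igfbp5 and 85.1% of Cxcl14 UMIs. Stab2 had a different spread: 457 barcodes carried it, the richest had 33 UMIs, and the top 10 held 11.2%. To reach 80% of the UMIs took 10 barcodes for Cxcl12, 1 for Col1a1, 8 for Col1a2, 13 for Sparc, 14 for Igfbp5, 9 for Cxcl14 and 220 for Stab2.

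In the control, Cxcl12, Igfbp5 and Cxcl14 were as concentrated, with 3 barcodes holding 80% of each. Col1a2 was not: 86 barcodes were needed, and 103 of the 117 barcodes with Col1a2 had a single UMI. Col1a1 was seen in 20 control barcodes, with 1 UMI in each. So the collagen genes in the control were spread thinly, while the chemokines and Igfbp5 each sat in a few barcodes in both libraries.

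**Figure D2:**
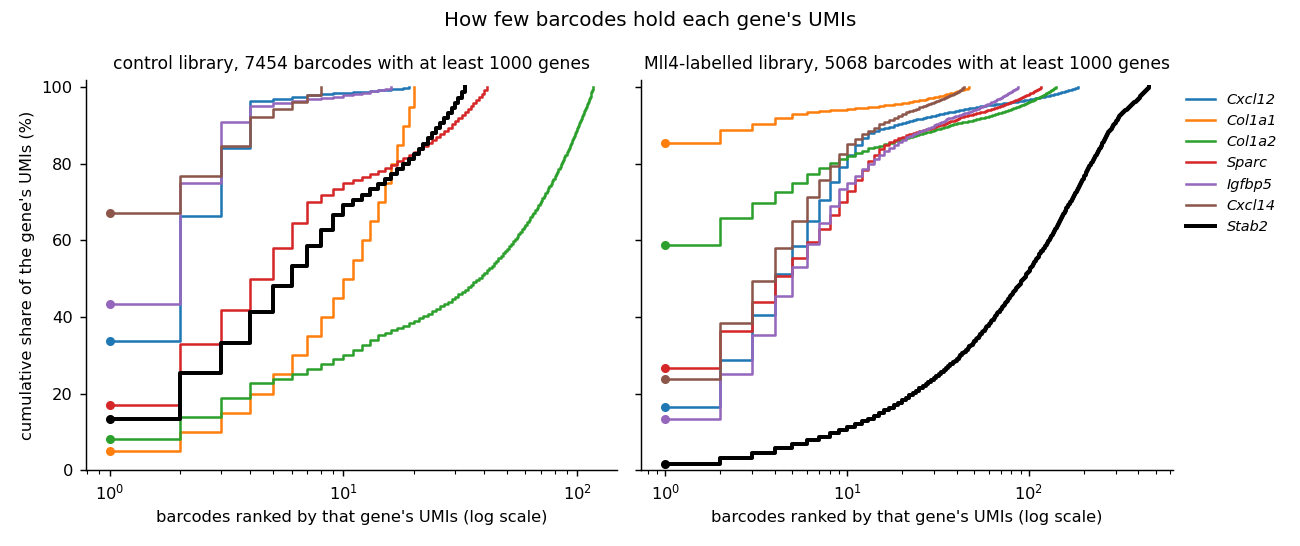
Cumulative share of each gene's UMIs (vertical axis, %) over barcodes ranked by that gene's UMIs (horizontal axis, log scale), in the control (left) and the Mll4-labelled library (right), barcodes with at least 1000 genes. In the Mll4-labelled library the 10 richest barcodes hold 72.9% to 94.4% of the UMIs of the 6 other genes and 11.2% of those of Stab2.

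Single barcodes weighed on the ratios. Without each gene's richest barcode in each library, the Mll4-labelled to control log2 ratio was 2.43 for Cxcl12, 2.28 for Col1a1, 1.57 for Col1a2, 2.76 for Sparc, 1.71 for Igfbp5, 3.96 for Cxcl14 and 4.85 for Stab2. The 2 collagen genes lost the most, since 1 barcode carried 561 of the 657 Col1a1 UMIs and 631 of the 1073 Col1a2 UMIs. All 7 remained at least 2-fold higher.

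Barcodes of stroma were then looked for with 8 markers that exclude the 7 genes: Lepr, Kitl, Adipoq, Pdgfra, Pdgfrb, Ebf3, Col3a1 and Dcn. A barcode entered the stroma set with at least 3 of these at 2 or more UMIs each and more markers of this list than of any other. The upper class of the Mll4-labelled library held 10 such barcodes (0.197%, exact binomial interval 0.0947 to 0.363). The control held 4 (0.0537%), the Mll3/4-labelled library 1 (0.0206%) and the Mll3-labelled library 0. All 15 also had at least 4 of the markers. Each of them carried Cxcl12, which the rule did not use.

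Cxcl12 stood at 77, 112, 206 and 213 UMIs in the 4 control stroma barcodes. In the 10 Mll4-labelled ones it stood at 10, 49, 128, 155, 174, 202, 296, 316, 341 and 448, and in the Mll3/4-labelled one at 91. Scaled to each barcode's total, the median was 24367 CPM in the control barcodes and 16603 CPM in the Mll4-labelled ones, against library levels of 5.25 and 22.4 CPM. In UMIs the medians were 159 and 188, at median depths of 6653 and 15263. The set was a larger share of barcodes there, by counts of 4 and 10.

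The other genes differed in direction. Igfbp5 had a median of 10218 CPM in the control stroma barcodes and 3803 CPM in the Mll4-labelled ones. Cxcl14 had 908 and 1614 CPM, Sparc 1780 and 2500 CPM, and Col1a2 1396 and 1646 CPM. These medians rest on 4 and 10 barcodes of 1 library each. Stab2 was absent from all 4 control stroma barcodes and present at 1 UMI in 1 of the 10 Mll4-labelled ones.

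One Mll4-labelled stroma barcode had another profile. It held 561 Col1a1, 631 Col1a2, 257 Sparc and 84 Igfbp5 UMIs but 10 of Cxcl12 and 1 of Cxcl14. It also held 77 UMIs of Dcn (decorin, a collagen-binding proteoglycan). Genes of osteoblasts were present in it: Bglap (osteocalcin) at 44, Spp1 (osteopontin) at 52, Ibsp (bone sialoprotein) at 50, Alpl (alkaline phosphatase) at 30, Runx2 at 14 and Sp7 at 4 UMIs. Lepr, the leptin receptor of reticular stroma, had 1 UMI and Adipoq 0. This barcode and its osteoblast genes were singled out after their values were seen. Without it, Cxcl12 made up 63.0% of the 3349 UMIs of the 6 genes in the stroma set, Igfbp5 11.02%, Sparc 8.96%, Cxcl14 8.54%, Col1a2 7.08% and Col1a1 1.43%.

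The endothelium set was defined without Stab2, by at least 3 of Stab1, Cdh5, Emcn, Kdr, Tek, Tie1, Flt4 and Plvap. The Mll4-labelled library had 7 such barcodes (0.138%), the Mll3-labelled library 4, the control 2 and the Mll3/4-labelled library 0. Sparc was present in every one: 7 and 21 UMIs in the control, 4, 6, 10 and 12 in the library labelled Mll3, and 6, 21, 26, 34, 45, 66 and 74 in that labelled Mll4. Stab2 was present in all but 1, with 6 and 10 UMIs in the control, 0, 1, 5 and 6 in the library labelled Mll3, and 2, 7, 8, 10, 25, 26 and 27 in that labelled Mll4. Neither gene was used to define the set, and Sparc was also present in every stroma barcode.

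Some barcodes carried both sets' genes. Among the 7 Mll4-labelled endothelium barcodes, 3 had 106, 82 and 76 UMIs of Cxcl12, with Lepr at 19, 4 and 10 and Adipoq at 14, 12 and 18. A further one had 8 UMIs of Cxcl12, and the other 3 had none. Among the stroma barcodes, the one with 296 UMIs of Cxcl12 also had Plvap at 9, Stab1 at 6, Flt4 at 4, Kdr at 3, Cdh5 at 2 and Stab2 at 1. Whether such barcodes held more than 1 cell was not tested. Removing the barcodes with the highest doublet scores took out none of the stroma or endothelium sets.

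**Figure D3:**
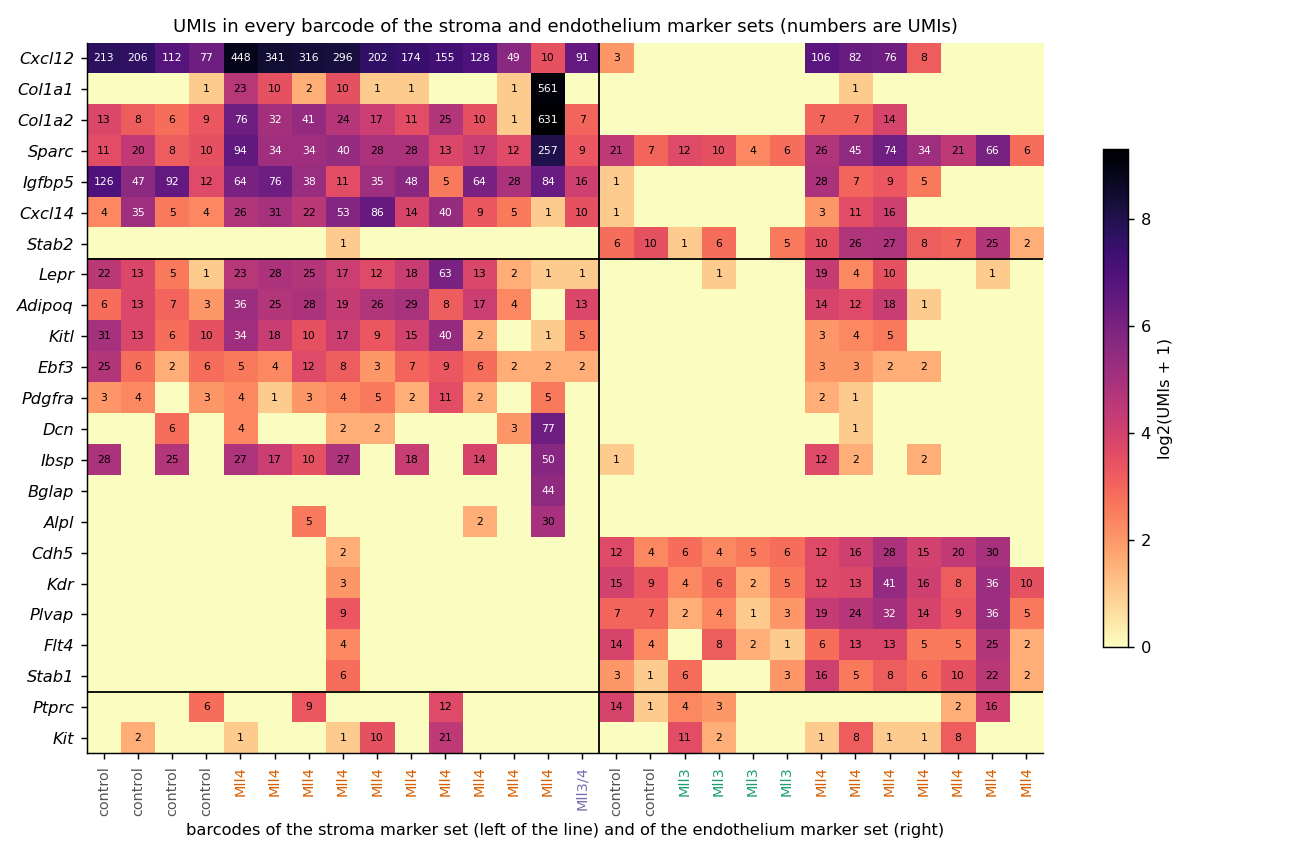
UMIs of the 7 genes (top), of stroma, bone and endothelium genes (middle) and of Ptprc and Kit (bottom) in each barcode of the stroma set (left of the line) and the endothelium set (right), with columns labelled by library. Colour is log2(UMIs + 1) and numbers are UMIs, blank for 0. Cxcl12 fills every stroma column, Sparc every endothelium column, and 1 Mll4-labelled stroma column holds 561 UMIs of Col1a1.

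Transcripts of the blood markers Ptprc and Kit were at 0 in most stroma barcodes and mixed in endothelium barcodes. Ptprc was at 0 UMIs in 3 of the 4 control stroma barcodes, 8 of the 10 Mll4-labelled stroma barcodes and 5 of the 7 Mll4-labelled endothelium barcodes. Both control endothelium barcodes had it (14 and 1 UMIs), and so did 2 of the 4 in the library labelled Mll3. Kit was at 0 in 6 of the 10 Mll4-labelled stroma barcodes and present in 5 of the 7 Mll4-labelled endothelium barcodes. Of the 6 antibodies in the panel, CD48 (a blood-cell protein) took a median of 26.2% of the antibody counts in the Mll4-labelled stroma barcodes. Its median over the whole library was 83.6%. The other antibodies went the other way: CD201 had 23.6% against 1.36%, CD117 15.1% against 7.09% and CD34 11.4% against 4.28%. CD135 had 9.11% against 0.919%, and CD150 6.496% against 0.853%. These are shares of 1 total over the 6 antibodies, so a lower CD48 share by itself raises the others. They do not show that more of the other antibodies was bound. In the stem marker set of that library the median CD48 share was 23.6%. A low CD48 share therefore did not set stroma barcodes apart from stem barcodes. The stem set's other median shares were 4.60% for CD201, 1.92% for CD135, 23.8% for CD117, 11.1% for CD34 and 4.62% for CD150. CD201 and CD135 were thus lower in the stem set than in the stroma set, CD117 was higher, and CD34 was close. The 3 stroma barcodes that did have Ptprc had CD48 shares of 80.2%, 73.8% and 86.7%. Cxcl12 in these 3 was 77 UMIs in the control barcode, and 316 and 155 in the Mll4-labelled ones. The median depth was 15263 UMIs in the Mll4-labelled stroma set against 19971.5 in its library, and 6653 in the control stroma set against 14216.

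The 17 stroma and endothelium barcodes of the Mll4-labelled library held 87.5% of Cxcl12, 92.8% of Col1a1, 83.5% of Col1a2, 85.6% of Sparc, 79.2% of Igfbp5 and 87.6% of Cxcl14 UMIs. They held 5.43% of Stab2. In the control the 6 such barcodes held 97.0% of Cxcl12, 95.5% of Igfbp5, 94.2% of Cxcl14, 62.1% of Sparc, 22.6% of Col1a2 and 21.3% of Stab2 UMIs. Of the 20 control UMIs of Col1a1, 1 (5%) lay in these barcodes. The label of stroma and endothelial genes therefore matched where 6 of the genes lay in the Mll4-labelled library and did not match where Stab2 lay, nor where Col1a1 and Col1a2 lay in the control.

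A barcode with 3 or more of the 7 genes was rare in every library: 34 in the Mll4-labelled library (0.671%, 0.465 to 0.936), 5 in the control (0.0671%), and 1 and 2 in the libraries labelled Mll3 and Mll3/4. Of the 34, 16 had 5 or more of the genes. By their other markers, 10 of the 34 were in the stroma set, 4 in the endothelium set and 14 in a macrophage and monocyte set, and 6 were elsewhere. Barcodes with at least 1 of the genes were far more numerous, at 881 in the Mll4-labelled library (17.4%), 225 in the control (3.02%), and 87 (1.37%) and 41 (0.844%) in the libraries labelled Mll3 and Mll3/4.

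Co-detection was compared with what depth alone gives. Within 10 depth classes of equal barcode number, the shares of barcodes with each gene were multiplied, and the products were summed to a number of barcodes with both. Over the 21 pairs in the Mll4-labelled upper class the median ratio of seen to multiplied was 8.10, and the pairs ranged from 0.867 to 22.3. The median of the pairs' lower limits was 4.76 and that of their upper limits 13.7, which is not an interval for the median ratio. The 15 pairs without Stab2 had a median of 10.48, none under 5.20, and the 6 pairs with Stab2 a median of 1.38, none over 1.94. Col1a1 and Cxcl14 were in the same barcode 10 times against 0.448 from the product, the largest ratio at 22.3. Cxcl12 and Stab2 shared 18 barcodes against 18.1, a ratio of 0.993. Without the stroma and endothelium barcodes the median was 3.34 over all pairs, where the medians of the lower and upper limits, 0.688 and 8.40, lay on either side of 1. Over the pairs without Stab2 it was 4.72, with the lowest pair at 1.19. In the control the median was 15.7 with those barcodes and 0 without them, where 4 of the 21 pairs were seen at all. The products assume nothing but depth, and cells of other types were not separated in them. Co-detection was named in the rule that set these genes, so the ratios are descriptions.

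Barcodes under 1000 genes carried the 7 genes at levels that differed between libraries. In the Mll4-labelled lower class Cxcl12 had 119 UMIs (57.2 CPM), Col1a1 13 (6.24), Col1a2 18 (8.64), Sparc 60 (28.8), Igfbp5 50 (24.0), Cxcl14 10 (4.80) and Stab2 82 (39.4). In the control lower class Cxcl12 had 42 UMIs (133 CPM), Igfbp5 27 (85.6 CPM), Sparc 7, Col1a2 6, Cxcl14 6, Stab2 5 and Col1a1 0. The Mll3-labelled lower class had 11 UMIs of Igfbp5, 8 of Cxcl12 and at most 3 of any other. In the Mll3/4-labelled lower class all 7 were at 0 UMIs of 328824, which allows 9.12 CPM each.

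These UMIs were spread in unlike ways. The 42 Cxcl12 UMIs of the control lay in 3 barcodes, with 24 in the richest, and 2 control barcodes under 1000 genes met the stroma rule. The 8 of the Mll3-labelled library lay in 1 barcode, and 1 met the stroma rule. In the library labelled Mll4 the 119 lay in 54 of 2634 barcodes, 45 of them with 1 UMI, and no barcode met the stroma rule (upper limit 0.114%). A group of 4 barcodes there had 3 or more of the genes, with 3, 12, 15 and 28 UMIs of Cxcl12 and 10.4% to 34.3% mitochondrial UMIs, against the class median of 2.82%. They held 48.7% of the class's Cxcl12 UMIs and 72% of its Igfbp5 UMIs but 2.44% of its Stab2 UMIs.

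Scaled to totals, the Mll4-labelled lower class exceeded the upper class by log2 ratios of 1.36 for Cxcl12, 1.87 for Sparc, 2.22 for Igfbp5 and 1.31 for Stab2. Cxcl14 (0.76), Col1a1 (0.27) and Col1a2 (0.02) were under 2-fold. The 4 of 7 at 2-fold or more stand beside 7.65% of 14038 genes measured, whose median was 0.02. With at most 10% mitochondrial UMIs 0 of the 7 reached 2-fold, and with the split at 500 genes 2 did. Once the stroma and endothelium barcodes and those with 3 or more of the genes were left out of both classes, all 7 were at least 2-fold higher in the lower class, with a median of 3.85, where 7.5% of 13909 genes were. That rule leaves out barcodes by the values of the 7 genes themselves, and it took Cxcl12 from 2734 to 227 UMIs in the upper class but from 119 to 61 in the lower, which raises the ratio. In what remained, Cxcl12 was at 29.4 CPM under 1000 genes and 1.87 CPM above. Sparc was at 22.7 and 0.907 CPM, and Stab2 at 38.6 and 15.1 CPM.

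Outside those barcodes the level of the 6 genes together moved against depth in the Mll4-labelled library. Over 5 classes of detected genes that start at 250, 500, 1000, 2000 and 4000, their sum was 78.5, 73.8, 21.3, 11.7 and 3.75 CPM. Per 1000 barcodes the same UMIs numbered 49.6, 94.6, 84.6, 129 and 142, a rise of under 3-fold while the median depth went from 613 to 34552.5 UMIs. The summed number of these UMIs per barcode thus changed far less than the depth of the barcodes. The genes were not alike in this. From the first class to the last Col1a2 went from 5.01 to 51.6 UMIs per 1000 barcodes, and Cxcl12 from 23.6 to 40.3. Col1a2 made up 137 of the 378 UMIs of the last class. Leaving out barcodes with 3 or more of the genes also limits the counted values themselves. Stab2 did not follow the fall of the sum: it was at 25.4, 59.0, 120, 62.9 and 3.58 CPM, and at 16.04, 75.7, 478, 695 and 136 UMIs per 1000 barcodes. In the control the 6 genes had 1, 4, 99 and 121 UMIs in the classes from 500, 1000, 2000 and 4000 genes (3.52, 4.61, 2.25 and 1.61 CPM).

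**Figure D4:**
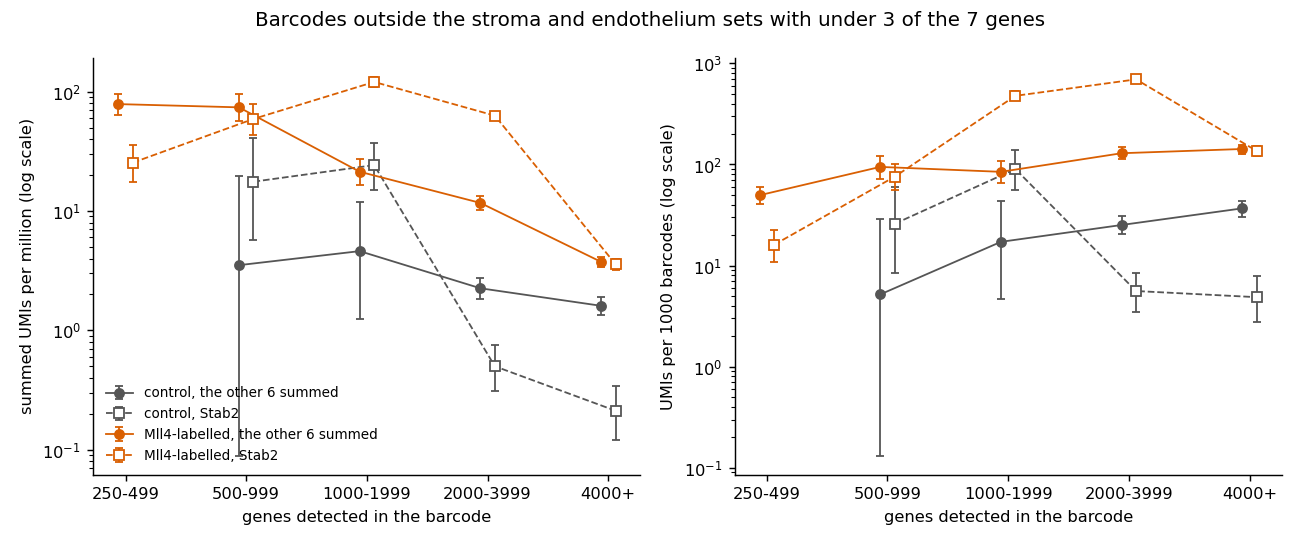
Summed CPM (left) and UMIs per 1000 barcodes (right), both on log scales, by number of genes detected, in barcodes outside the stroma and endothelium sets that have under 3 of the 7 genes. Filled points are the 6 genes other than Stab2, open squares are Stab2, bars are 95% Poisson intervals, and classes with no UMI are not drawn. In the Mll4-labelled library the 6 genes summed fall from 78.5 to 3.75 CPM while staying between 49.6 and 142 per 1000 barcodes, and Stab2 peaks in the middle classes.

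Haemoglobin transcripts, known from red cells, which a lineage-negative sort should leave out, were set beside the 7 genes. Hbb-bs was at 613 CPM in upper-class barcodes of the Mll4-labelled library and seen in 32.2% of them, and at 696 CPM and 24.3% in the lower class. Of its upper-class UMIs 68.3% lay in 10 barcodes, with up to 10700 in 1, so that its CPM mostly reflects a few barcodes and its share of barcodes the wide spread. Upper-class Hbb-bs levels elsewhere were 5.51 CPM in the control (5.03% of barcodes), 4.30 CPM in the library labelled Mll3 and 151 CPM in that labelled Mll3/4 (2.57%). The other 3 haemoglobin genes, Hba-a1, Hba-a2 and Hbb-bt, were seen in 18.8%, 20.1% and 25.7% of the Mll4-labelled upper-class barcodes and in 1.31%, 1.02% and 16.3% of those of the control. Hbb-bt was at 31.3 CPM in the control and 20.9 CPM in the library labelled Mll3/4, the reverse of the order for Hbb-bs. In the control lower class Hbb-bt was seen in 2.63% of barcodes, against 16.3% in the upper class. Whether the haemoglobin UMIs came from red cells or from the captured cells was not tested. All 4 haemoglobin genes were seen in a larger share of Mll4-labelled barcodes than Cxcl12 (3.69%). What part free RNA has in the single UMIs of the 7 genes was not tested.

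Outside stroma and endothelium the 7 genes differed between blood marker sets of the Mll4-labelled library. Cxcl12 was seen in 65 of 628 macrophage and monocyte barcodes (10.4%, 8.08 to 13.0), at 16.02 CPM and a median depth of 11775.5 UMIs. It was seen in 20 of 663 mast barcodes (3.02%), in 46 of 1713 granulocyte-monocyte barcodes (2.69%, 1.04 CPM, median 36668 UMIs) and in 2 of 623 stem barcodes (0.321%, 0.174 CPM, median 25367 UMIs). Thinned to 3000 UMIs a barcode, the expected shares were 3.58%, 1.43%, 0.327% and 0.0644%. Of these 4 sets the stem set, which should lack Cxcl12, was the lowest and the macrophage set the highest, thinned or not. In the control Cxcl12 was seen in 0 of 18 macrophage, 1 of 1098 granulocyte-monocyte and 3 of 2484 stem barcodes.

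Among blood sets of 10 or more barcodes Igfbp5 and Sparc were seen most often in the macrophage set, in 34 (5.41%) and 31 (4.94%) of its 628 barcodes. The macrophage barcodes together held 304 UMIs of the 6 genes, of which Cxcl12 was 46.7%, Igfbp5 23.4%, Sparc 14.5%, Cxcl14 6.25%, Col1a2 5.92% and Col1a1 3.29%. In mast barcodes Cxcl12 was 54.3% and Igfbp5 20% of 105 UMIs. A single mast barcode held 56 of these 105, with 34 of Cxcl12 and 11 of Igfbp5. It also had the stroma markers Ebf3 at 4 and Adipoq at 3 UMIs, so the mast makeup mostly reflects that barcode. In lower-class barcodes with under 3 of the genes Cxcl12 was 38.4%, Sparc 29.6%, Col1a2 10.1% and Igfbp5 8.81% of 159. In the whole stroma set Cxcl12 was 43.3%, Col1a2 17.7%, Col1a1 12.4%, Sparc 11.4%, Igfbp5 9.26% and Cxcl14 5.87%. Only Cxcl12 held the same place there as in the macrophage barcodes. Without the stroma barcode of highest Col1a1, the order was that of the macrophage barcodes. The stroma shares were then Cxcl12 63.0%, Igfbp5 11.02%, Sparc 8.96%, Cxcl14 8.54%, Col1a2 7.08% and Col1a1 1.43%. That barcode was dropped by the values being ranked. In the macrophage barcodes Cxcl14 and Col1a2 had 19 and 18 UMIs, which does not settle their order. The match of the orders is therefore a description, and the source of the macrophage UMIs was not tested.

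Stem barcodes had another makeup. Of their 89 UMIs of the 6 genes, 66.3% were Col1a2 and 3.37% Cxcl12. Col1a2 was seen in 43 of 623 stem barcodes of the Mll4-labelled library (6.90%, 5.04 to 9.18; 3.42 CPM), in 58 of 2484 of the control (2.33%; 1.58 CPM) and in 21 of 2573 of the Mll3-labelled library (0.816%; 0.489 CPM). Granulocyte-monocyte barcodes had it in 30 of 1713 (1.75%; 0.596 CPM) and in 6 of 1098 (0.546%; 0.294 CPM) in the Mll4-labelled and control libraries, at greater median depth. Col1a2 was therefore at a higher CPM in stem than in granulocyte-monocyte barcodes in both libraries, and so was Sparc in the Mll4-labelled library (0.870 against 0.518 CPM). Cxcl12 was lower in stem barcodes there, and Igfbp5 was at 0.290 and 0.282 CPM. Without the stroma, endothelium and 3-gene barcodes, the Mll4-labelled to control log2 ratio of Col1a2 was 0.34 (157 against 123 UMIs) and that of Col1a1 0.89 (36 against 19). Cxcl12 at 3.53 (227 against 19 UMIs), Igfbp5 at 2.65, Sparc at 1.203 and Stab2 at 4.93 were at least 2-fold higher there, 4 of the 6 with at least 50 UMIs, where 13% of 14853 genes were. Cxcl14 (34 against 3 UMIs, log2 ratio 3.29) was under that minimum.

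Stab2 in the Mll4-labelled library lay mainly in barcodes with markers of innate lymphoid and T cells (Cxcr6, Il7r, Gata3, Rora, Icos, Il2ra, Cd3e, Thy1, Il18r1 and Klrg1). That set held 39, 50, 304 and 1 upper-class barcodes in the 4 libraries, or 0.523%, 0.789% and 5.998% in the first 3. Stab2 was seen in 7 of 39 of them in the control (17.9%, 7.54 to 33.5), 6 of 50 in the Mll3-labelled (12%) and 227 of 304 in the Mll4-labelled library (74.7%, 69.4 to 79.5). The sets differed in makeup: Cd3e, a T-cell receptor subunit, was seen in 7 of the 32 control and 33 of the 44 Mll3-labelled barcodes without Stab2, in 0 of the 304 Mll4-labelled ones, and in no barcode with Stab2. The shares therefore compare unlike sets of barcodes. Their levels were 76.4, 38.1 and 452 CPM, at median depths of 5511, 12834 and 7565 UMIs. Thinned to 3000 UMIs, the expected shares were 16.3% in the control and 59.0% in the Mll4-labelled library.

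The 304 Mll4-labelled innate lymphoid barcodes held 1154 of the 1952 Stab2 UMIs (59.1%), with a median of 4 and a highest of 33 in those that had any. The 7 endothelium barcodes had a higher level (1081 CPM) but 105 UMIs in all. Mast barcodes carried Stab2 in 54 of 663 (8.14%, 28.7 CPM), granulocyte-monocyte barcodes in 54 of 1713 (3.15%), macrophage barcodes in 26 of 628 (4.14%) and stem barcodes in 14 of 623 (2.25%). Of the 321 Mll4-labelled barcodes with 2 or more Stab2 UMIs, 267 (83.2%) had a UMI of at least 3 of the 10 innate lymphoid markers. The same held for 7 of 10 in the control and 6 of 8 in the Mll3-labelled library.

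**Figure D5:**
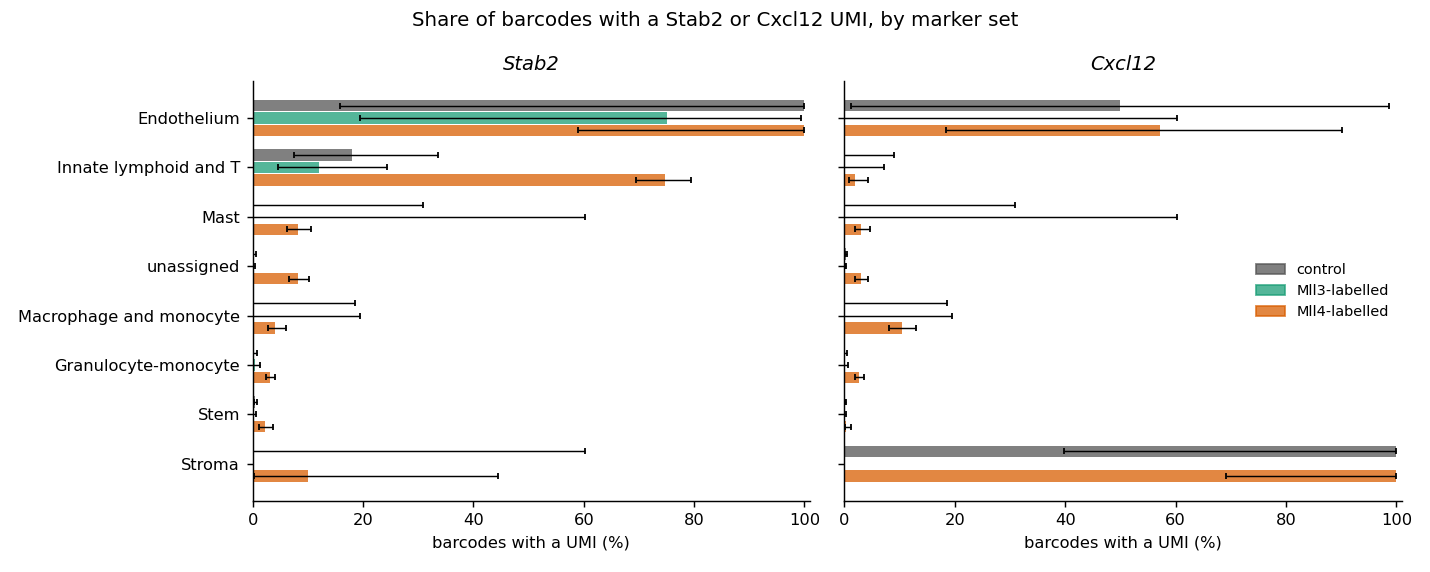
Share of barcodes with a UMI of Stab2 (left) and of Cxcl12 (right) in each marker set, barcodes with at least 1000 genes; bars are single libraries and lines are 95% exact binomial intervals. Stab2 is seen in 74.7% of the Mll4-labelled innate lymphoid set against 17.9% in the control, and Cxcl12 in every stroma barcode and 10.4% of Mll4-labelled macrophage barcodes.

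The Stab2 barcodes of this set rarely carried other endothelial genes. Among the 227, Cdh5 was seen in 1, Kdr in 1, Emcn in 2 and Stab1 in 6, while Ptprc was seen in 206 (90.7%) and Kit in 213 (93.8%). Il7r, Gata3, Icos and Il18r1 are among the markers that define the innate lymphoid set, so their shares in it are partly fixed by its rule. Il7r, the receptor of a lymphoid survival cytokine, was seen in 100% of the innate lymphoid barcodes with and without Stab2. Gata3, a regulator of type 2 innate lymphoid cells, was seen in 89.4% of those with Stab2 and 66.2% of those without, and Icos in 76.7% and 50.6%. Il18r1 went the other way, at 44.9% and 70.1%. Median depth was 7640 and 7317 UMIs in these 2 groups, so that they differed little in depth. Each group comes from the same library, and the difference has no replicate check.

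The genes that usually accompany the 7 were taken as lists. Of 12 reticular stroma genes 9 were at least 2-fold higher in the Mll4-labelled library than in the control, with a median log2 ratio of 2.21. This and the list counts that follow stand beside 13.6% of all genes. The 3 with the most UMIs, Hp (haptoglobin, 12675 against 1449), Lpl (lipoprotein lipase, 11733 against 245) and Vcam1 (an adhesion molecule, 5948 against 389), were not stroma-bound here: 5.21%, 8.55% and 10.9% of their Mll4-labelled UMIs lay in the stroma, endothelium and 3-gene barcodes. Serping1, of the same list and not used to find those barcodes, had 90.6% there. The share for Kitl, the KIT ligand, was 43.2%, and Kitl helped to define the stroma set.

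Bone genes were few. Of the 10, 5 were measured in both libraries and 2 were at least 2-fold higher, with a median of 0.91. Runx2, the master regulator of osteoblasts, had 5044 UMIs against 8672 (log2 ratio -0.81), Spp1 541 against 375 (0.50) and Ibsp 206 against 56 (1.85). Of the Mll4-labelled Ibsp UMIs 93.7% lay in the barcodes named above, against 27.4% of those of Spp1 and 0.833% of those of Runx2. Of 14 fibroblast and collagen genes 10 of 12 measured were at least 2-fold higher and 2 lower, with a median of 2.18. Fn1 (fibronectin) had 4902 UMIs against 103, of which 4.32% lay in those barcodes. Bgn (biglycan) was lower, at 611 against 1722, and so was Serpinf1, at 546 against 1869. Col5a2, a collagen chain of fibrils, had 97.4% of its UMIs in those barcodes.

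Of 15 endothelial genes 13 were measured, 9 at least 2-fold higher and 4 at least 2-fold lower, with a median of 1.61; over all genes 7.34% were at least 2-fold lower. Egfl7 had 7620 UMIs against 20828 (log2 ratio -1.47), Fabp4 7196 against 313 (4.50) and Mrc1, a mannose receptor shared with macrophages, 4988 against 164 (4.90). Fabp4 and Mrc1 had 8.10% and 6.92% of their UMIs in the stroma, endothelium and 3-gene barcodes, and Stab1, the paralogue of Stab2, 6.07%. In the CXCL12 system the receptor gene Cxcr4 had 4380 UMIs against 1773 (1.28), and Dpp4, whose product cleaves CXCL12, 1239 against 2233 (-0.87). Ackr3, the scavenger receptor of CXCL12, had 13 against 1. Of the other IGFBP genes, Igfbp4 (11156 against 17967, log2 ratio -0.71) and Igfbp7 (602 against 503, 0.23) did not reach 2-fold, while Igfbp3 (21 UMIs against 3), Igfbp2 (11 against 2) and Igfbp6 (13 against 19) were under the minimum of 50. Of the Igfbp3 and Igfbp2 UMIs 95.2% and 100% lay in the stroma, endothelium and 3-gene barcodes.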

How the data were processed

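Single-cell RNA and antibody-tag libraries of sorted marrow LSK cells were analysed, 1 for each of 4 genotypes, grouped by their titles. The deposited values are raw UMI counts per gene and barcode. The authors made them with Cell Ranger 6.1.1 on mm10, per the submitters' processing notes, from 10x Genomics 3-prime v3.1 libraries, per the labels' protocols. The rule that chose the deposited barcodes is not given in the sources used here. The 7 genes and all lists were chosen with earlier results of these data known.

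All barcodes were kept and split at 1000 detected genes. UMIs were summed per library and class and scaled to CPM. Log2 ratios were taken after adding 0.5 UMIs. Genes with at least 50 UMIs over both sums gave the shares for all genes. Intervals are exact Poisson for sums and exact binomial (Clopper-Pearson) for shares, at 95%, and a count of 0 is given with a limit of 3. Marker sets needed 3 markers with 2 UMIs each, the 7 genes left out, and are ranges, not cell types. Thinned shares are the expected share with a UMI among 3000 drawn, and barcodes with fewer UMIs were left out. Other genes were named by rule: the 3 of each list with the most UMIs in the Mll4-labelled library, and the genes most like the 7 (5 over libraries, 10 over barcodes, given in the closing section). Others that are named were picked after their values were seen.

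Scrublet's own threshold called 1, 1, 166 and 2 doublets (0.0134%, 0.0158%, 3.28% and 0.0412%), so it did not work in 3 of the 4 libraries. An alternative removed the highest scores, at 0.8% of barcodes per 1000 (444, 321, 205 and 189). Positions are from GENCODE M21 (GRCm38). Scaling alternatives used edgeR 4.0.16 (TMM) and DESeq2 1.42.0 (median of ratios). Python 3.11.15, scipy 1.17.1 and scanpy 1.11.5 were used, and the scripts were tested on simulated counts.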

Additional observations from a re-analysis of the deposited data

How the results depend on the processing

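The median log2 ratio of the 7 genes, Mll4-labelled against control, lay between 2.55 and 2.87 in 11 of 12 alternatives (other scalings, 1 UMI added, other gene splits, a 10% mitochondrial limit, doublet removal, and without the marker-set and 3-gene barcodes) and was 2.43 without each gene's richest barcode. No single-gene ratio of this comparison changed sign. In the comparison of barcodes under against at least 1000 genes, Col1a1 and Col1a2 did change sign. Their lowest log2 ratios were -0.82 and -0.78, against 0.27 and 0.02 as reported. The median for barcodes under against at least 1000 genes moved most: 0.66 with the split at 500 genes (2 of 7 at 2-fold), 0.44 with at most 10% mitochondrial UMIs (0 of 7), and 3.85 without the marker-set and 3-gene barcodes. The share of Mll4-labelled barcodes with 3 or more of the genes was 0.346% thinned to 3000 UMIs and 0.396% without marker-set barcodes. The median co-detection ratio was 32.5 thinned and 3.34 without marker-set barcodes. The share of innate lymphoid barcodes with Stab2 was 59.0% thinned, where fewer UMIs are drawn, and the stroma share lay between 0.175% and 0.211%. Beyond thinning and left-out barcodes, the cause of these moves was not tested. The runs without marker-set or richest barcodes, and all those on the stroma and Stab2 shares, were chosen after seeing the data. No paired analysis was possible because each group has 1 library, and for the same reason no replicate could be left out. Small sums limit the precision of the Mll3-labelled and Mll3/4-labelled levels, which rest on 0 to 56 UMIs, apart from 115 for Cxcl12.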

Other observations

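Over the 8 sets of 4 libraries by 2 barcode classes, the genes whose log2(CPM + 1) was most like the mean of the 7 were Tbc1d2b (Pearson r = 0.983), Rgl1 (0.980), Lrp1 (0.980), Bcl2a1a (0.977) and Cp (0.969). Lrp1 is an endocytic receptor and Cp encodes ceruloplasmin. Among the 7, Sparc was closest to the mean of the other 6 (0.980) and Col1a1 farthest from it (0.470), with Cxcl12 at 0.963, Stab2 at 0.939, Cxcl14 at 0.909, Igfbp5 at 0.872 and Col1a2 at 0.822. The points share libraries and depth, so these are descriptions over 8 points.

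Of 2232 genes ranked between Mll4-labelled barcodes with 3 or more of the 7 genes and those with none, the 10 with the largest ratio were Col8a1 (96 UMIs against 1, log2 ratio 13.10), Ebf3, Fbln5, Ptprd, Grem1, Sfrp4, Col5a2, Agt, Cyp1b1 and Ltbp2 (109 against 4, log2 ratio 11.70). They include matrix genes (Col8a1, Fbln5, Col5a2 and Ltbp2), secreted regulators of BMP and Wnt signalling (Grem1 and Sfrp4), and Ebf3, a transcription factor of reticular stroma. A ranking of 7271 genes between barcodes with 2 or more Stab2 UMIs and those with none, added after seeing the data, was led by Igkv16-104 (257 UMIs against 5, log2 ratio 10.52). It also held Mcpt1 (400 against 34) and Abcc9 (181 against 21) beside the endothelial genes Mmrn2, Ptprb, Cdh5 and Nr2f2. All 7 endothelium barcodes were among those with 2 or more Stab2 UMIs. They held 121 of the 123 Cdh5 UMIs there, so Cdh5 was not a trait of the Stab2 barcodes in general.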
